A study of Mus musculus with 20 samples.

Results

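The chromatin around 6 genes was examined in fasted mouse liver: Ppara, which encodes the nuclear receptor PPARα, and 5 genes whose products act with it, Rxra, Ppargc1a, Creb3l3, Ncor1 and Lpin1. The genes were taken by name. Their regions are the intervals of the authors' consensus sets for 3 histone marks whose middle lies in the gene body or within 20 kb of it (mm10 positions, RefSeq gene bodies). This gave 354 of 215358 intervals: 102 of 65776 for H3K27ac, 150 of 103014 for H3K4me1 and 102 of 46568 for H3K9ac. Livers came from male C57BL/6 mice of 9 weeks after a fast of 24 hours. The 4 genotypes were wild type (WT), Cpt2 L-/- (a knockout of Cpt2 in liver, here Cpt2 KO), Ppara -/- (a knockout in the whole body, here Ppara KO) and the double knockout Cpt2 L-/- ; Ppara -/- (DKO). The labels do not name the Cre driver or the deleted segment of either gene, and all groups, WT included, were fasted. H3K27ac and H3K4me1 were profiled in 2 livers of each genotype, and H3K9ac in 1 WT and 1 Cpt2 KO liver. The study asked how PPARα and the oxidation of fatty acids, for which Cpt2 is needed in mitochondria, act together on the transcription of the liver.

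PPARα is activated by fatty acids and switches on their uptake and oxidation when food is withdrawn. It binds DNA as a heterodimer with the retinoid X receptor RXRα, the product of Rxra, at repeats of the half-site AGGTCA separated by a single base. Ppargc1a encodes PGC-1α, a coactivator induced in liver by fasting, and Lpin1 encodes lipin 1, a phosphatidate phosphatase that also works as a coactivator with PGC-1α and PPARα. Creb3l3 encodes CREBH, a transcription factor released from the endoplasmic reticulum membrane that acts with PPARα on fasting genes, and Ncor1 encodes a corepressor that recruits histone deacetylase 3 to nuclear receptors. H3K27ac marks active promoters and enhancers, H3K4me1 marks enhancers, active or not, and H3K9ac marks active chromatin.

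The start regions of 4 of the genes are shown because they cover the range of H3K27ac at the listed starts. They run from 2 inside a strong interval to 2 with none over them. Each sequence holds the 250 bases before a start listed by RefSeq (GRCm38.p6), 5′ to 3′ along the gene. Capitals mark the nuclear receptor half-site AGGTCA and the core TGACG of the cyclic AMP response element, each searched on both strands. The Ppara sequence lies at chr15:85735526-85735775, the Creb3l3 sequence at chr10:81092592-81092841, the Ppargc1a sequence at chr5:51567726-51567975 and the Lpin1 sequence at chr12:16610967-16611216, the last 3 on the minus strand.
Ppara: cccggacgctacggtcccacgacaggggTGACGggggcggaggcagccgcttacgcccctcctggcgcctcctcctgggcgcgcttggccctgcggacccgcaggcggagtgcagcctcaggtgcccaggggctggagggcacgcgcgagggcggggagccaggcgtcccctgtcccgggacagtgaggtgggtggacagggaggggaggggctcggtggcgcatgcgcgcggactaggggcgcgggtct
Creb3l3: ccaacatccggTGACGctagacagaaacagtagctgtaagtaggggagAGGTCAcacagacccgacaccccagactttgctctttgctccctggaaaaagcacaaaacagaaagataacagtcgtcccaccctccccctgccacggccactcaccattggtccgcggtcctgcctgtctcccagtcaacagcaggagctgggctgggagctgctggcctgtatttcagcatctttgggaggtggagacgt
Ppargc1a: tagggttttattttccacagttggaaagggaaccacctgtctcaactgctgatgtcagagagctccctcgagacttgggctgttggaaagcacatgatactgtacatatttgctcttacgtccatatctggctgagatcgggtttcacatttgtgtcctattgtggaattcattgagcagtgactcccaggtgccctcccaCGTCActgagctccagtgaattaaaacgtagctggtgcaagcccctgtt
Lpin1: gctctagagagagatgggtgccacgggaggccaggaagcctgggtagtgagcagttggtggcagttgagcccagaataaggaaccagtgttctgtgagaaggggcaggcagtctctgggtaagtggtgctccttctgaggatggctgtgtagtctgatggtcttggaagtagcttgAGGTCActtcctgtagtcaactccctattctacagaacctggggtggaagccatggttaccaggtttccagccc
The Ppara sequence holds 27 CpG dinucleotides, more than most promoters (the median of 32851 listed promoters was 6), while the Creb3l3 sequence holds 8, the Ppargc1a sequence 5 and the Lpin1 sequence 1. AGGTCA occurs in the Creb3l3 sequence, with its first base at −202 from the start, and in the Lpin1 sequence at −74. It is found in 14.0% of all promoters over the same length. TGACG occurs at −222 for Ppara, at −239 for Creb3l3 and, on the opposite strand, at −49 for Ppargc1a, and 17.8% of promoters hold it. The full repeat, a pair of AGGTCA with any single base between, was found in none of these 4 windows and in 0.0335% of promoters.

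Listed starts differed in the marks they carried. The start of Ppara (plus strand, 85735776), one of the 2 Creb3l3 starts (81092591) and one of the 2 Ncor1 starts (62457332) lay inside an H3K27ac interval that was called in all 8 libraries. The first Rxra start (27677201) lay in a gap, 170 bases beyond an interval with folds from 31.5 to 48.6. The second Rxra start (27709292) lay in an H3K27ac interval called in 7 libraries, with folds from 4.29 to 8.88, and in a strong H3K4me1 interval. No H3K27ac interval reached the listed Ppargc1a start (51567725), where the nearest was 13336 bases away, or the listed Lpin1 start (16610966), where it was 5227 bases away. The bodies of both genes extend upstream of these starts (to 52115853 and 16653903), and no other start of theirs was listed. Whether they have other active starts was not tested. H3K4me1 left the Ppara start free: the nearest interval ended 620 bases before it.

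For every interval and library the value is the highest fold enrichment over input among the authors' peaks that overlap the interval, and a library without such a peak has no call. The lists held 44454 to 48929 H3K27ac and 61189 to 72151 H3K4me1 peaks per library, and depth in reads is not given by the files. Intervals called in all 8 libraries of a mark were tested with limma after centring each library on its median log2 fold: 29 of the 102 H3K27ac and 43 of the 150 H3K4me1 intervals entered, so those without a call in some genotype are described by their calls alone. Numbers in the peak names run from 6833 to 6848 in Ppara-null and from 9548 to 9589 in Ppara-intact libraries, so that Ppara state and this numbering cannot be told apart. The smallest peak width of an H3K27ac library was 217 to 223 bases in the 4 Cpt2-null and 198 to 210 bases in the 4 Cpt2-intact libraries, so width and Cpt2 state cannot be told apart either. Of 8 hepatocyte marker genes 7 carried H3K27ac, among them Alb, and peaks were also called at 5 of 6 macrophage, 5 of 5 endothelial, 4 of 5 stellate cell and 1 of 4 cholangiocyte markers, with none at Marco, Col1a1, Krt19, Krt7 and Epcam. Libraries of the Cpt2-null livers held 7 to 14 called H3K27ac intervals at the macrophage markers and 9 to 13 at the stellate cell markers, against 4 to 6 and 3 to 6 in Cpt2-intact libraries. At the hepatocyte markers Cpt2-intact libraries held 22 to 24 and Cpt2-null ones 13 to 38; by Ppara state the ranges were 13 to 23 (intact) and 22 to 38 (null). In the Cpt2 contrast 3 of 13 tested hepatocyte marker intervals were lower and 2 of 21 endothelial ones higher (limma). The part of these markers in the results was not tested. In whole tissue, fewer cells of a type and less of a mark per cell cannot be told apart.

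Loss of Ppara was first read at the Ppara gene itself (body chr15:85734910-85806851), which is knocked out in the Ppara KO and DKO livers. Which part of it is deleted is not named, and peaks were still called across the body in these livers. H3K27ac inside the gene was lower in Ppara-null livers at several sites, while the interval over the start was not. In the comparison of Ppara-null (Ppara KO and DKO) with Ppara-intact livers (WT and Cpt2 KO), 6 of the 29 tested H3K27ac intervals of the 6 genes passed an adjusted p under 0.05, beside 7.34% of all 18281 tested intervals. Of these, 4 were lower (4.15% of all) and 2 higher (3.19% of all). The Ppara locus held 5 of the 6, all 4 lower ones among them, and without it 1 of 21 passed. The median log2 difference was −0.67 over the 8 tested Ppara intervals, −0.01 over the 21 of the other genes and −0.01 over all tested.

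The interval with the clearest difference lies 7.38 kb inside the gene (chr15:85741614-85744699). Its folds were 13.7 and 18.6 (WT), 15.9 and 15.4 (Cpt2 KO), 8.69 and 8.60 (Ppara KO) and 7.91 and 7.99 (DKO). All 4 Ppara-null libraries lay below all 4 Ppara-intact ones, and within each state the genotypes with and without Cpt2 lay close to each other. The log2 difference was −0.96 ± 0.17 (SE; adjusted p = 0.00474, limma), and it stayed past the threshold under all 16 alternatives. The neighbouring interval at 11.17 kb (chr15:85745608-85748290) had folds of 19.9 and 12.9 (WT), 12.9 and 14.1 (Cpt2 KO), 7.71 and 9.86 (Ppara KO) and 5.0 and 6.67 (DKO). Again no Ppara-null library reached a Ppara-intact one, and DKO was lowest (log2 difference −1.08 ± 0.21, adjusted p = 0.00844, limma). The mean of the overlapping peaks in place of the highest gave an adjusted p of 0.0928 here.

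Deeper in the gene, at 52.78 kb (chr15:85785705-85791413), folds were 10.5 and 11.8 (WT), 20.1 and 21.0 (Cpt2 KO), 7.73 and 8.17 (Ppara KO) and 10.1 and 8.89 (DKO). The 2 Cpt2 KO livers stood above the rest, and the 4 Ppara-null libraries lay below both WT livers, so the states did not overlap here either. The Ppara-null difference was −0.83 ± 0.17 (adjusted p = 0.0113, limma). Its call was lost without Cpt2 KO replicate 2 and with the mean of the overlapping peaks, at an adjusted p of up to 0.0971. The interaction, the Cpt2 effect in Ppara-null minus that in Ppara-intact livers, was −0.72 and did not pass (adjusted p = 0.335, limma). Beyond the end of the gene, at 75.29 kb (chr15:85810060-85812081, in the body of Cdpf1), folds were 11.0 and 19.4 (WT), 15.1 and 15.2 (Cpt2 KO), 8.82 and 5.43 (Ppara KO) and 10.7 and 12.4 (DKO). The groups overlapped, and the difference of −0.77 ± 0.21 (adjusted p = 0.0448, limma) kept its call in only 6 of 16 alternatives.

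The interval over the Ppara start (chr15:85730896-85741526), which was the strongest of the gene in H3K27ac, had folds of 16.2 and 21.1 (WT), 25.3 and 22.9 (Cpt2 KO), 20.2 and 28.4 (Ppara KO) and 32.3 and 43.9 (DKO). WT was lowest and DKO highest by genotype mean, and Cpt2 KO and Ppara KO overlapped each other. The Ppara-null difference was 0.48 ± 0.13 higher (adjusted p = 0.0409, limma). The call was lost in 10 of 16 alternatives, and in another, the mean of the overlapping peaks, the sign was reversed (−0.41). The summit of the highest peak in the interval lay 479, 509, 510, 517 and 495 bases past the start in both WT livers, both Cpt2 KO livers and Ppara KO replicate 1, but before the start, at −653, −655 and −644, in Ppara KO replicate 2 and both DKO livers. The highest H3K27ac at the start thus sat on one side of it in 5 libraries and on the other in 3, with no position between; this was seen after the values were known and was not tested.

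**Figure D1:**
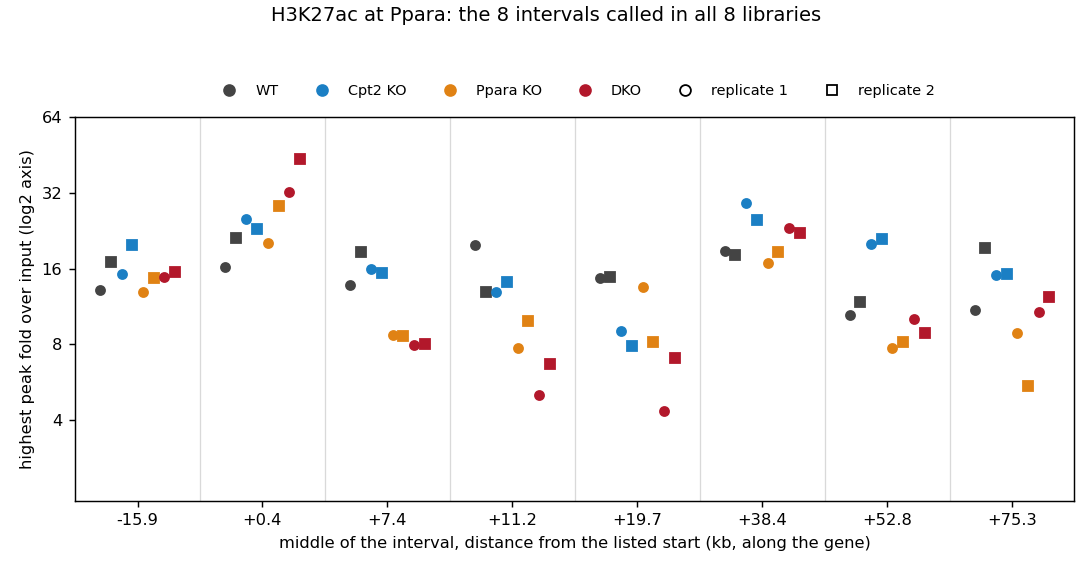
H3K27ac at the 8 Ppara intervals called in all 8 libraries; the x axis gives the distance of each interval's middle from the listed start in kb, the y axis the highest peak fold over input on a log2 axis, and each point is 1 liver. At +7.4, +11.2 and +52.8 kb the 4 Ppara-null livers lie below the 4 Ppara-intact ones, as at 3.28% of all tested intervals. At +0.4 kb, over the start, both DKO livers are highest.

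Loss of Cpt2 touched H3K27ac at 2 of the 29 tested intervals, beside 12.3% of all tested intervals, and both lay in Ppara and were lower. At 19.66 kb (chr15:85754441-85756430) folds were 14.6 and 14.8 (WT), 9.04 and 7.86 (Cpt2 KO), 13.5 and 8.17 (Ppara KO) and 4.33 and 7.05 (DKO). Both WT livers were high and both DKO livers low, with Ppara KO replicate 2 inside the range of the Cpt2 KO livers. The Cpt2-null difference was −1.13 ± 0.22 (adjusted p = 0.00894, limma). With smallest peak width as a covariate the adjusted p was 0.70 (limma). Width splits these libraries as Cpt2 state does, so that fit cannot tell width and state apart. The interval at 11.17 kb was lower in Cpt2-null livers too (−0.69 ± 0.21, adjusted p = 0.0454, limma), a call that was lost in 12 of 16 alternatives. No interaction passed in the 29 intervals (limma), beside 0.00547% of all. At an unadjusted p under 0.05 there were 0 in the 29 (limma), beside 2771 of all 18281.

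Fewer H3K27ac intervals of the Ppara gene were called in each Ppara-null liver than in any Ppara-intact one, and fewest in DKO. Of the 28 H3K27ac intervals, 27 and 19 (WT), 21 and 21 (Cpt2 KO), 17 and 16 (Ppara KO) and 12 and 9 (DKO) were called. Over all 65776 intervals the same libraries called 34347 and 33878, 35865 and 35407, 33559 and 32126, and 36182 and 38796, so the DKO livers had the most calls in the genome. The intervals at 14.00, 24.54 and 47.62 kb were called in the 6 other libraries and in neither DKO library, with folds from 4.89 to 12.5. They make up 3 of the 102 H3K27ac intervals of the 6 genes, and 0.327% of all consensus intervals had this pattern. In length, called peaks covered 66.6 and 51.6 kb of the Ppara window in WT, 52.3 and 59.7 kb (Cpt2 KO), 46.9 and 49.4 kb (Ppara KO) and 33.9 and 29.6 kb (DKO). All Ppara-null libraries lay below all Ppara-intact ones, as they did at 6.16% of the 12736 protein-coding genes with a peak in every library. H3K4me1 gave the same order, with 55.3 and 48.4 kb (WT), 49.0 and 49.5 kb (Cpt2 KO), 44.8 and 40.5 kb (Ppara KO) and 36.6 and 32.2 kb (DKO) (Ppara-null lower at 4.69% of genes). As a share of all bases called in a library, the 2 states overlapped at Ppara in both marks.

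**Figure D2:**
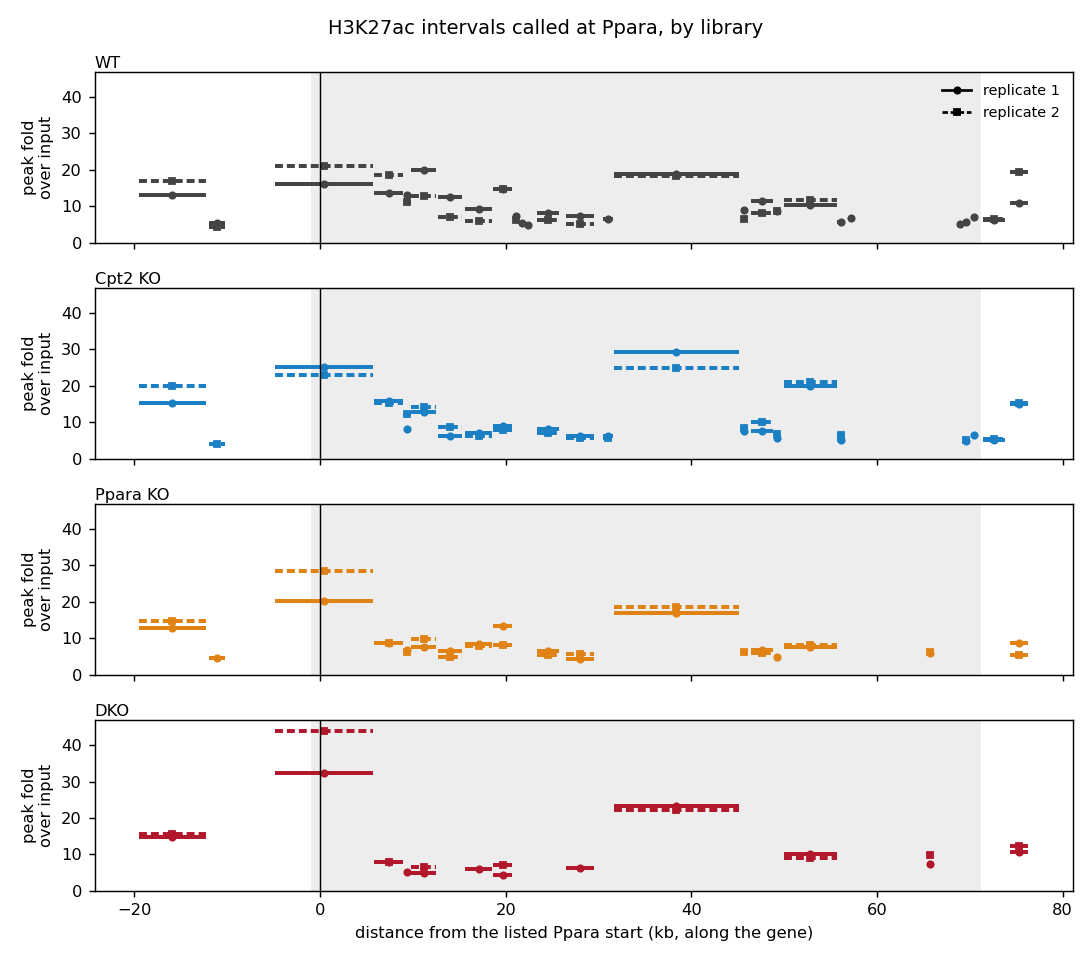
H3K27ac intervals called at Ppara in each genotype; the x axis is the distance from the listed start in kb along the gene, the y axis the highest peak fold over input, each horizontal segment spans an interval, and grey marks the gene body. The segments inside the gene are fewest in the DKO panel, and the interval over the start is highest there, at 32.3 and 43.9.

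A few small intervals at Ppara went with the Ppara state alone, by the criterion of a call in at least 3 libraries of one state and in none of the other. One inside the gene near its end (65.67 kb, chr15:85801195-85801691) was called in the 4 Ppara-null livers only, and the interval at 72.57 kb beyond the gene in the 4 Ppara-intact livers only. H3K27ac intervals at 30.98 kb (6.44 in WT replicate 1, 6.31 and 5.80 in Cpt2 KO), at 56.13 kb (5.81, 5.12 and 6.64 in the same livers) and at 69.54 kb (5.78, 5.0 and 5.2) were called in those 3 Ppara-intact livers and nowhere else. H3K4me1 intervals at 21.08 kb (5.74, 5.17 and 5.67), at 49.26 kb (8.52, 4.56 and 4.11) and at 71.91 kb (4.33, 3.44 and 7.43) were called in both WT livers and Cpt2 KO replicate 2 only. These libraries had smallest peak widths of 196 to 199 bases, against 210 to 221 in Cpt2 KO replicate 1, Ppara KO replicate 2 and DKO. The part of width was not tested. The remaining 2 of this kind were the H3K4me1 intervals at 73.15 and 74.98 kb, called in the 4 Ppara-intact livers with folds from 6.17 to 9.99. Over the 6 genes, 5 of 102 H3K27ac intervals were Ppara-intact only (1.73% of all) and 2 were Ppara-null only (1.63% of all). In H3K4me1 the counts were 6 of 150 Ppara-intact only (2.84% of all) and 4 Ppara-null only (1.96% of all). The Ppara locus, whose gene is knocked out in the other state, held 4 of the 5 and 5 of the 6 Ppara-intact intervals. Among them, H3K27ac at 72.57 kb and H3K4me1 at 71.91, 73.15 and 74.98 kb lie beyond the gene body. The deleted segment is not named, and its part in these calls was not tested.

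H3K4me1 gave no difference that passed. Of the 43 tested H3K4me1 intervals of the 6 genes, 0 passed for Ppara (0.128% of all), 0 for Cpt2 (0.0% of all) and 0 for the interaction (0.0% of all, limma). At an unadjusted p under 0.05 there were 8 for Ppara, 7 for Cpt2 and 0 for the interaction (limma). Over all 19526 tested intervals 2721, 1916 and 566 were under it. The lowest adjusted p was 0.155, at 11.36 kb in Ppara (chr15:85745937-85748334), where folds were 14.5 and 15.1 (WT), 12.8 and 13.0 (Cpt2 KO), 13.3 and 8.0 (Ppara KO) and 7.67 and 6.67 (DKO). Ppara KO replicate 1 lay among the Ppara-intact livers and the other 3 Ppara-null livers below them. The strongest H3K4me1 interval, at −15.93 kb (chr15:85716219-85723467), read 17.2 and 15.9 (WT), 13.0 and 17.0 (Cpt2 KO), 14.2 and 15.7 (Ppara KO) and 8.70 and 10.4 (DKO). Both DKO livers were below the rest, with a Ppara-null difference of −0.40 ± 0.17 (adjusted p = 0.299, limma). The median over the 17 tested Ppara intervals was −0.35, against −0.01 over all tested.

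Rxra, the dimer partner (plus strand, chr2:27676445-27763319), carried strong H3K27ac in every liver and no interval that passed in any contrast. Its strongest H3K27ac interval, just before the first start (chr2:27671297-27677031), had folds of 34.1 and 39.0 (WT), 38.4 and 37.6 (Cpt2 KO), 31.7 and 31.5 (Ppara KO) and 35.5 and 48.6 (DKO). All livers were high, the 2 Ppara KO livers lowest and DKO replicate 2 highest, and neither contrast passed (Ppara-null difference −0.07 ± 0.10, adjusted p = 0.734; Cpt2-null −0.04 ± 0.10, adjusted p = 0.834; limma). The interval past that start (chr2:27677510-27685053) ran from 22.6 to 39.8. Over the 11 tested H3K27ac intervals the Ppara-null differences lay between −0.30 and 0.40 and the Cpt2-null ones between −0.49 and 0.13. The strongest H3K4me1 interval, over the second start (chr2:27708025-27714080), read 17.4 and 19.0 (WT), 13.4 and 18.7 (Cpt2 KO), 15.5 and 16.2 (Ppara KO) and 11.8 and 16.3 (DKO). Both WT livers lay above the 4 Ppara-null ones and overlapped Cpt2 KO.

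What differed at Rxra was the extent of H3K27ac. Peaks covered 84.5 and 84.7 kb of the window in WT and 82.1 and 71.6 kb in Ppara KO, against 44.1 and 67.6 kb in Cpt2 KO and 51.5 and 54.2 kb in DKO. All Cpt2-null libraries lay below all Cpt2-intact ones, as at 13.5% of genes. They did so also as a share of all bases called in a library, as at 9.5% of genes. Peak width split the libraries the same way, here and at Lpin1, and cannot be told apart from Cpt2 state. Intervals at −6.53 kb (6.92 and 5.14 in WT, 5.67 and 4.44 in Ppara KO), at 21.41 kb (5.33 and 4.67, 4.33 and 4.67) and at 22.31 kb (5.60 and 6.16, 5.24 and 4.97) from the nearest start were called in the 4 Cpt2-intact livers only. H3K4me1 covered 74.9 to 90.3 kb in the 8 libraries without a split by Cpt2 state. It covered 87.0 to 90.3 kb in the 4 libraries with smallest peak widths of 196 to 200 bases. In those with 210 to 221 bases it covered 74.9 to 82.4 kb, and the part of width was not tested. A pair of intervals beyond the end of the gene went with one state: at 57.40 kb calls came from both WT livers and Cpt2 KO replicate 2 (5.26, 7.03 and 4.45), and at 58.72 kb from both Cpt2 KO livers and DKO replicate 2 (5.56, 4.61 and 3.75).

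Ppargc1a (minus strand, chr5:51454249-52115853), the fasting coactivator, had 3 tested H3K27ac intervals, of which 1 was higher in Ppara-null livers. The interval at 29.46 kb inside the gene (chr5:51536488-51540047) had folds of 6.11 and 6.67 (WT), 12.4 and 4.18 (Cpt2 KO), 17.4 and 13.2 (Ppara KO) and 12.4 and 17.3 (DKO). Both WT livers and Cpt2 KO replicate 2 were low, while Cpt2 KO replicate 1 was as high as DKO replicate 1. The Ppara-null difference was 1.11 ± 0.27 higher (adjusted p = 0.0256, limma), the largest rise of the 29 intervals, and 7 of 16 alternatives lost the call, with adjusted p values up to 0.105. Without Cpt2 KO replicate 2, WT replicate 1 or 2, Ppara KO replicate 1 or DKO replicate 2 it did not pass. The strongest interval, at 14.91 kb (chr5:51551243-51554389), read 13.2 and 14.1 (WT), 20.7 and 12.0 (Cpt2 KO), 13.7 and 14.5 (Ppara KO) and 15.9 and 19.4 (DKO). Before centring, both DKO livers lay above WT and Ppara KO, and the Cpt2 KO livers were lowest and highest of all (Ppara-null difference 0.07 ± 0.17, adjusted p = 0.85, limma).

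Far upstream of the listed start, within the long gene body, a pair of adjoining intervals was strongest in DKO. The one at −299.92 kb (chr5:51867010-51868281) had no call in WT and folds of 8.02 and 5.98 (Cpt2 KO), 7.18 and 10.5 (Ppara KO) and 16.4 and 19.5 (DKO). It is the single H3K27ac interval of the 6 genes with calls in all 6 mutant libraries and none in WT, a pattern of 2.59% of all intervals. The one at −301.15 kb (chr5:51868358-51869390) was not called in WT replicate 1 and had folds of 5.0 in WT replicate 2, 11.3 and 5.2 (Cpt2 KO), 7.4 and 8.4 (Ppara KO) and 24.7 and 15.5 (DKO). Both DKO livers thus lay above the other 6 at both sites. An interval at 21.76 kb in the gene (chr5:51544783-51547155) gave a like order, with no call and 5.50 in WT, 11.5 and 7.33 (Cpt2 KO), 10.0 and 10.7 (Ppara KO) and 14.8 and 14.7 (DKO). These 3 were not among the intervals called in all 8 libraries, since a WT library had no call.

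The intervals at Ppargc1a that went with one state were all called in null livers. At 121.13 kb, beyond the end of the gene (chr5:51445534-51447658), H3K27ac was called in the 4 Ppara-null livers only, at 7.36 and 10.0 (Ppara KO) and 8.0 and 7.64 (DKO). At −24.29 kb (chr5:51591404-51592619) it was called in the 4 Cpt2-null livers only, at 9.50 and 8.0 in Cpt2 KO and 8.14 and 6.00 in DKO. At −27.98 kb (chr5:51595371-51596040) the same 4 livers gave 11.1, 6.54, 6.93 and 7.28. Over the 6 genes 3 of 102 H3K27ac intervals were Cpt2-null only (4.5% of all) and 9 were Cpt2-intact only (2.49% of all). In H3K4me1 the interval at −28.13 kb was called in 3 Cpt2-null livers only (6.00 in Cpt2 KO replicate 1, 8.58 and 6.46 in DKO), the 1 of 150 of this kind (1.41% of all). Another 3 H3K4me1 intervals, at −257.66, −367.53 and −368.20 kb, were called in Ppara KO replicate 2 and both DKO livers only, with folds from 4.5 to 10.3. Smallest peak widths were 210 to 221 bases in these libraries and Cpt2 KO replicate 1, and 196 to 200 in the others. The part of width was not tested.

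**Figure D3:**
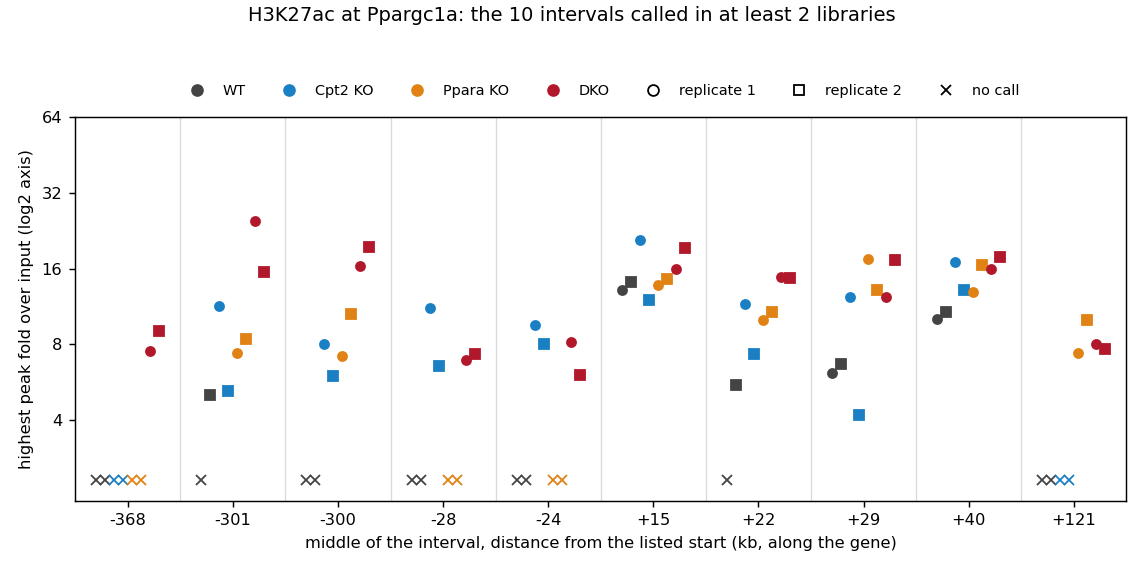
H3K27ac at the 10 Ppargc1a intervals called in at least 2 libraries; the x axis gives the distance of each interval's middle from the listed start in kb along the gene, the y axis the highest peak fold over input on a log2 axis, and crosses mark libraries with no call. WT livers lack a call or lie low at most sites, and both DKO livers are highest at −301 and −300 kb.

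The length under H3K27ac peaks at Ppargc1a was 6.24 and 7.93 kb (WT), 12.5 and 8.34 kb (Cpt2 KO), 14.1 and 12.9 kb (Ppara KO) and 17.2 and 13.7 kb (DKO). Every Ppara-null library lay above every Ppara-intact one, as at 4.6% of genes, although not as a share of all called bases. H3K4me1 covered 4.52 and 7.21 kb in WT and 15.6 and 14.2 kb in DKO, 11.1 and 4.62 kb in Cpt2 KO and 9.74 and 13.9 kb in Ppara KO. The 2 DKO livers were highest there, and Cpt2 KO replicate 2 was as low as WT. The strongest H3K4me1 interval, at 39.70 kb (chr5:51526881-51529177), had overlapping genotypes, with folds from 6.10 to 13.7. At the far end of the gene body an H3K4me1 interval (chr5:52114528-52115490) was called in both WT livers (6.55 and 9.82), Cpt2 KO replicate 2 (12.1) and Ppara KO replicate 1 (9.24). These are the 4 H3K4me1 libraries with smallest peak widths of 196 to 200 bases; the others had 210 to 221, and the part of width was not tested.

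**Figure D4:**
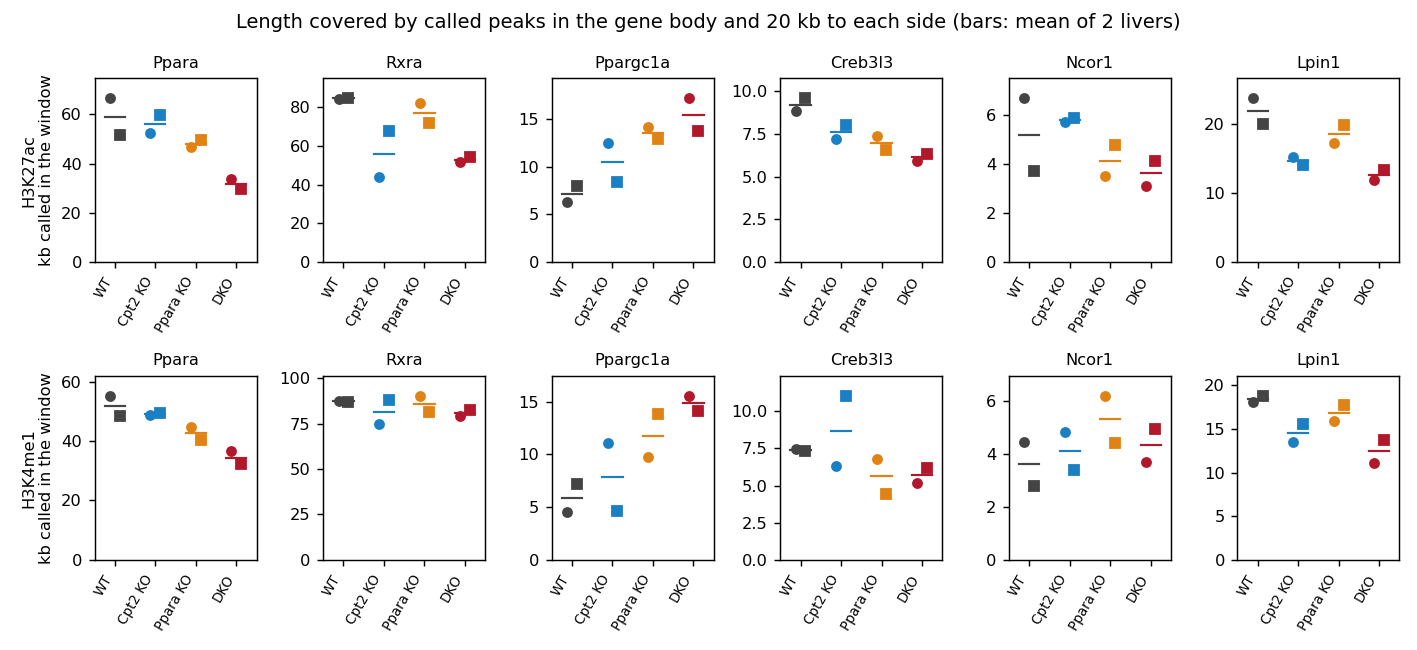
Length covered by called peaks in the gene body and 20 kb to each side, in kb, for H3K27ac (top) and H3K4me1 (bottom); points are livers, circles replicate 1 and squares replicate 2, and bars the mean of 2 livers. The DKO livers are lowest at Ppara (29.6 and 33.9 kb in H3K27ac), WT livers are lowest at Ppargc1a in H3K27ac, and at Lpin1 the Cpt2-null livers lie below the Cpt2-intact ones.

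Creb3l3 (minus strand, chr10:81084329-81098872), the factor that acts beside PPARα, had no interval that passed in any contrast. The H3K27ac interval over its start at 81092591 (chr10:81089893-81095731) had folds of 15.6 and 19.8 (WT), 24.3 and 24.3 (Cpt2 KO), 15.1 and 18.8 (Ppara KO) and 16.9 and 20.4 (DKO). The 2 Cpt2 KO livers were highest and the other genotypes overlapped (Ppara-null −0.26 ± 0.14, adjusted p = 0.282; Cpt2-null 0.04 ± 0.14, adjusted p = 0.873; limma). Its strongest interval lies upstream of the gene (chr10:81103531-81106828) and ranged from 14.7 in WT replicate 1 to 35.9 in DKO replicate 2, with DKO above Ppara KO and the other genotypes overlapping. The strongest H3K4me1 interval (chr10:81092817-81095810) ran from 7.60 to 11.9. An H3K4me1 interval upstream of the gene (chr10:81102256-81102902) was called in all 6 mutant libraries and in no WT library, with folds from 4.0 to 9.39. With an interval at Ppargc1a (−24.58 kb) it made 2 of 150 of this pattern, beside 0.85% of all; both were picked out after their values were seen. As a share of all called bases, the length called at Creb3l3 was lower in every Ppara-null than in every Ppara-intact library in H3K27ac (as at 6.87% of genes) and in H3K4me1 (5.64%), but not in kb.

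Ncor1 (minus strand, chr11:62315663-62457414), the corepressor, had its strongest H3K27ac at the start (chr11:62456033-62459210). Folds there were 35.5 and 26.0 (WT), 27.6 and 22.7 (Cpt2 KO), 34.6 and 17.6 (Ppara KO) and 38.2 and 29.6 (DKO). The 2 Ppara KO livers held nearly the full range of the 8, and neither contrast passed (Ppara-null 0.03 ± 0.22, adjusted p = 0.955; Cpt2-null −0.18 ± 0.22, adjusted p = 0.609; limma). The other tested interval, at 6.45 kb, ran from 4.22 to 9.93. Weak intervals near the other listed start (62438515) were called in Cpt2-intact livers only: H3K27ac at −2.08 kb (5.0 and 6.63 in WT, 6.17 in Ppara KO replicate 2), and H3K4me1 at −0.48 kb (7.68 and 4.4 in WT, 6.41 in Ppara KO replicate 1) and at −1.07 kb (6.87 in WT replicate 1, 5.21 and 6.18 in Ppara KO). The latter pair are the 2 of 150 H3K4me1 intervals that were Cpt2-intact only, against 1.3% of all. H3K4me1 at 28.59 kb in the gene (chr11:62409659-62410200) was called in the 4 Ppara-null livers only, at 5.75 and 6.20 (Ppara KO) and 7.18 and 5.37 (DKO). The strongest H3K4me1 interval, at −5.77 kb and in the body of Pigl, ran from 5.2 to 9.20 with overlapping genotypes.

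Lpin1 (minus strand, chr12:16535669-16653903), the lipin coactivator, carried 3 strong H3K27ac intervals in all livers, none of which passed, and 5 weak ones that were called in Cpt2-intact livers only. The strongest, at −8.09 kb (chr12:16616193-16621926), had folds of 19.2 and 20.5 (WT), 18.9 and 18.5 (Cpt2 KO), 17.1 and 25.1 (Ppara KO) and 21.5 and 28.0 (DKO). Before centring, both DKO livers lay above WT and Cpt2 KO, and Ppara KO reached from below them into the DKO range. Neither contrast passed (Ppara-null 0.20 ± 0.14, adjusted p = 0.442, and Cpt2-null −0.19 ± 0.14, adjusted p = 0.390, limma). The interval at 22.64 kb (chr12:16584179-16592479) gave the lowest adjusted p of the gene for Cpt2, 0.124 (−0.38 ± 0.16), with folds of 21.5 and 24.0 (WT), 21.9 and 14.5 (Cpt2 KO), 19.0 and 16.7 (Ppara KO) and 15.8 and 23.6 (DKO). H3K27ac calls at the gene numbered 13 and 11 in WT, 5 and 8 in Ppara KO, 4 and 3 in Cpt2 KO, and 3 and 3 in DKO. Over all intervals, Cpt2-null libraries called more (35407 to 38796) than Cpt2-intact ones (32126 to 34347). Called length followed, with 23.7 and 19.95 kb in WT and 17.2 and 19.8 kb in Ppara KO, against 15.2 and 14.0 kb in Cpt2 KO and 11.9 and 13.3 kb in DKO. Over the genome, H3K27ac peaks covered 42.0 to 44.88 Mb in Cpt2-null and 44.82 to 47.79 Mb in Cpt2-intact libraries. At Lpin1 all Cpt2-null libraries lay below all Cpt2-intact ones in kb, as at 13.5% of genes. They did so also as a share of all called bases, as at 9.5% of genes. H3K4me1 length separated the same way, at 15.9 to 18.8 kb against 11.1 to 15.5 kb (3.22% of genes), but not as a share of called bases.

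At 5 Lpin1 intervals H3K27ac was called in at least 3 Cpt2-intact livers and in no Cpt2-null liver, beside 2.49% of all intervals. The one at 47.79 kb (chr12:16562577-16563773) read 9.00 and 8.25 in the WT livers and 5.83 in Ppara KO replicate 2. Those at 27.91 and 27.22 kb gave 7.01 and 3.67, and 5.70 and 5.92, in WT, with 4.17 and 5.24 in Ppara KO replicate 2. The one at −11.24 kb gave 4.88 and 5.50 in WT and 4.34 in Ppara KO replicate 1, and the one at −18.40 kb 5.40 and 6.60 in WT and 6.50 and 6.28 in Ppara KO. H3K4me1 at 47.72 kb, under the first of these, was called in all 8 livers with folds from 7.28 to 12.9, also where H3K27ac had no call. Another H3K4me1 interval, at 45.81 kb, was called in both WT livers and Cpt2 KO replicate 2 only (5.14, 5.12 and 4.5). These libraries had smallest peak widths of 196 to 199 bases, and the part of width was not tested. The strongest H3K4me1 interval of the gene, at −20.09 kb (chr12:16629817-16632295), had folds from 5.89 in Cpt2 KO replicate 2 to 13.0 in WT replicate 1.

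H3K9ac, for which 1 WT and 1 Cpt2 KO library give calls without enrichment values, was called mostly in WT at Lpin1. Of its 22 H3K9ac intervals 17 were called in WT alone, 5 in both livers and 0 in Cpt2 KO alone. Over all H3K9ac intervals 20.8% were called in WT alone and 23.9% in Cpt2 KO alone. Of the 17, 12 lie from 30.97 to 49.58 kb past the listed start, and 3 of the 12 overlap an H3K27ac interval. Ppara had 30 of 43 in both, 8 in WT alone and 5 in Cpt2 KO alone, Rxra 11, 2 and 4 of 17, Creb3l3 9, 3 and 3 of 15, Ncor1 1, 1 and 0 of 2, and Ppargc1a 1, 2 and 0 of 3. An H3K9ac interval covered the starts of Ppara, Creb3l3 and Ncor1 named above and the second Rxra start. The Ppargc1a interval called in both livers (chr5:51550652-51554080) overlapped the strongest H3K27ac interval of that gene. There is no replicate check for this mark.

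**Figure D5:**
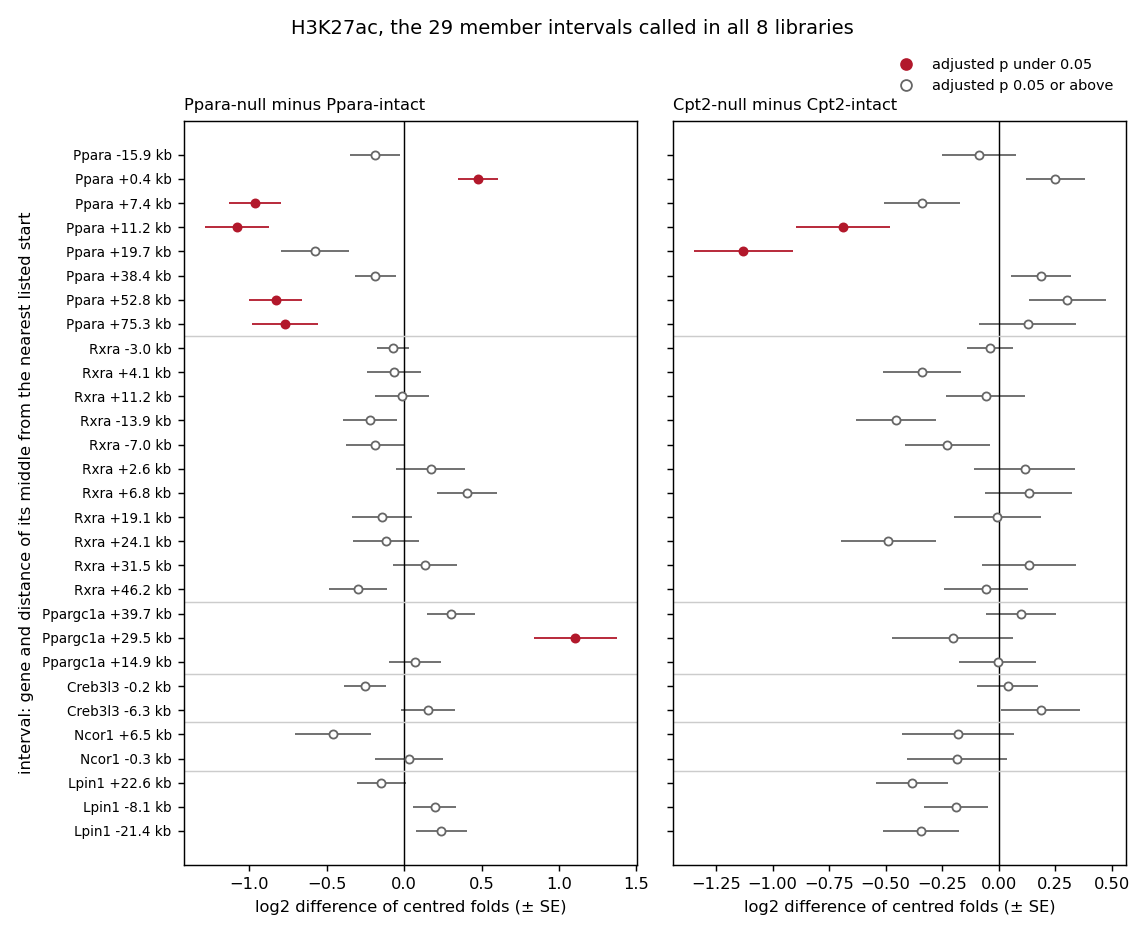
Log2 differences of centred H3K27ac folds with standard errors for the 29 intervals called in all 8 libraries, in the Ppara contrast (left) and the Cpt2 contrast (right); each row is an interval named by gene and the distance of its middle from the nearest listed start in kb, and filled points passed an adjusted p under 0.05. The points that passed are 5 at Ppara and 1 at Ppargc1a on the left and 2 at Ppara on the right.

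Other genes of the pathway were read from lists of 29 relatives and cofactors, with 94 tested H3K27ac intervals within 20 kb. For Ppara 3 were higher and 2 lower, and for Cpt2 3 were higher and 7 lower; both shares lie near or below those of all intervals. By list, the Ppara calls were 1 of 15 for the nuclear receptor relatives, 2 of 30 for the coactivators, 1 of 21 for the corepressors and 1 of 28 for the relatives of the other members. At Ppargc1b, which encodes the second PGC-1 coactivator, an interval fell by 1.37 ± 0.17 in Ppara-null livers (adjusted p = 0.000654, limma). Its folds were 27.8 and 29.6 (WT), 34.7 and 41.0 (Cpt2 KO), 11.2 and 11.6 (Ppara KO) and 11.0 and 20.2 (DKO). The Ppara-null libraries lay below the Ppara-intact ones without overlap, as at 3.28% of all tested intervals. An interval at the coactivator gene Ncoa3 was lower (−0.64, adjusted p = 0.0432, limma). Single intervals were higher at Creb3l1 (0.70, adjusted p = 0.0161), Nr0b2, which encodes the corepressing receptor SHP (0.62, adjusted p = 0.0269), and the corepressor gene Nrip1 (0.64, adjusted p = 0.0485, limma).

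In the Cpt2 contrast 1 of 15 intervals of the nuclear receptor relatives, 1 of 30 of the coactivators and 5 of 21 of the corepressors were lower. Of the relatives of the other members 3 of 28 were higher. Over all intervals 7.38% were lower and 4.9% higher. The corepressor list holds genes for partners of Ncor1 in its complex. An interval in or within 20 kb of Hdac3, the deacetylase gene of the complex (chr18:37930994-37934065), fell by 1.21 ± 0.19 (adjusted p = 0.00493, limma). Its folds were 13.0 and 19.4 (WT), 10.4 and 7.33 (Cpt2 KO), 9.80 and 14.7 (Ppara KO) and 5.57 and 6.20 (DKO). The 2 DKO livers were lowest, and Cpt2 KO replicate 1 lay above Ppara KO replicate 1. Tbl1xr1, a subunit, fell by 0.91 and 0.58 at 2 intervals (adjusted p = 0.00659 and 0.0177, limma). An interval at Creb1 was higher (0.77, adjusted p = 0.0116, limma). Without centring the median interval was 0.25 higher in Cpt2-null livers, so these are differences relative to that shift. With smallest peak width as a covariate no interval passed for Cpt2 among all 18281 (limma, 1426 at an unadjusted p under 0.05). Width splits these libraries as Cpt2 state does, so that fit cannot tell width and state apart. In H3K4me1 0 of 122 tested intervals of the lists passed in either contrast (limma). At an unadjusted p under 0.05 there were 22 for Ppara and 13 for Cpt2 (limma), beside 2721 and 1916 of all 19526.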

How the data were processed

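ChIP-seq of H3K27ac, H3K4me1 and H3K9ac was done on whole livers, each against pooled input. Per the submitters' processing notes, reads were aligned to mm10 with BWA and peaks called with MACS2 2.1.0. The authors deposited one peak list per liver for H3K27ac and H3K4me1, whose fold column is a linear ratio of peak to input and whose −log10 columns hold p and q values, and consensus intervals per mark with the deposited calls of each library. The total reads per library are unknown. Peak names of Ppara KO replicate 2 in H3K27ac carry another build word, mmi90, but all its peaks overlap the consensus.

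From these, the highest fold among the peaks overlapping an interval by at least 1 base was taken per library, as log2. Intervals called in all 8 libraries were centred on each library's median and fitted with limma 3.58.1 (R 4.3.3): a mean per genotype, with contrasts for Ppara, Cpt2 and their interaction, and Benjamini-Hochberg adjustment over all tested intervals of the mark. Intervals named are the strongest and the start interval of each gene, those past the threshold and those called in 1 state only; others were named after their values were seen. Simulated data had the same spread in every interval and 200 changed intervals. A log2 difference of 1.0 was found there in 93% (H3K27ac) and 80% (H3K4me1), and one of 0.5 in 1.5% and 2.5%. The labels do not say more of the livers than that they are separate samples, so p-values measure the spread between samples. Members and lists were chosen with earlier results of these data known. Some results of the gene lists are not reported here. Gene bodies and promoters are from RefSeq; tables were handled with pandas 2.3.3 (Python 3.11.15).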

Additional observations from a re-analysis of the deposited data

How the results depend on the processing

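A log2 difference of 0.5 was mostly missed in the simulated data, which had 200 changed intervals. In the H3K27ac data 1342 intervals passed for Ppara, so that rate need not hold there. For the Ppara contrast in H3K27ac (6 calls) the count was 22 of 79 with uncalled libraries filled in with the lowest fold of their list, 2 with the mean of the overlapping peaks, 3 with smallest peak width as a covariate, and 2 to 5 when each liver was left out in turn. For Cpt2 (2 calls) it was 1 with quantile normalization, 25 of 79 filled in, 0 with a minimum −log10 q of 10, 0 with width as a covariate, and 1 to 2 without each liver. Filling in gave 4 interactions. Over all 47873 intervals, filling in gave 4218 higher and 5634 lower for Ppara. It gave 5715 and 6319 for Cpt2, and 2989 and 2035 for the interaction. For Ppara the mean of the overlapping peaks gave 251 higher and 368 lower of 18281, and width as a covariate 288 and 425. For Cpt2 quantile normalization gave 1016 and 1116 of 18281, and the minimum −log10 q of 10 gave 790 and 1167 of 16642. In H3K4me1 the calls for Ppara changed when Cpt2 KO replicate 1 was left out, here and over all intervals. The interval over the Ppara start was reversed, to −0.41, with the mean of the overlapping peaks. The cause of these changes was not tested.

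Among all tested H3K27ac intervals the Cpt2 contrast split into 896 rises and 1349 falls, and without centring into 3504 and 432. Width as a covariate, which splits these libraries as Cpt2 state does, left 0 for Cpt2 (limma, 1426 unadjusted). Same-numbered livers share only a number, and their deviations correlated from −0.065 to 0.172 in H3K27ac and from −0.489 to 0.101 in H3K4me1. The −0.489 was between Cpt2 KO and Ppara KO, so livers of opposite number tended to deviate together there. Smallest peak width in H3K4me1 was 211 bases in Cpt2 KO replicate 1 and 216 in Ppara KO replicate 2, against 196 and 200 in their partners. The part of width was not tested. With the replicate block the counts were 5 for Ppara and 2 for Cpt2 in H3K27ac, and 0 elsewhere.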
